A study of Mus musculus with 8 samples.

Results

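Caveolae and flotillin microdomains are specialised patches of the plasma membrane, and the 10 genes described here encode their structural proteins. The genes are the caveolins Cav1 and Cav2, the cavins Cavin1, Cavin2 and Cavin3, the neck ATPase Ehd2, the membrane-curving proteins Pacsin2 and Pacsin3, and the flotillins Flot1 and Flot2. They were chosen by name with earlier results of these data known, and each symbol matched 1 of the 55450 gene identifiers counted. Of the 10, 9 passed the filter on low counts and were tested among 14641 genes, each with at least 99 counts in every library, while Cavin3 was not tested. RNA came from PyMT-1099 cells, a mouse breast cancer line, in 8 libraries of polyadenylated RNA. There were 2 libraries each of AGPS KO cells kept for 10 days in TGF-β (2 ng/ml), of untreated AGPS KO cells, of parental cells in the same TGF-β, and of untreated parental cells. Agps encodes a peroxisomal enzyme of ether lipid synthesis, and every knockout library carries the name of the same knockout line, so a difference between the lines may belong to that line as well as to the lost gene. How the gene was disrupted is not given in the sources used here. Each group grew in high glucose DMEM with 10% serum.

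Caveolae are flask-shaped pits that buffer membrane tension, take up cargo and hold signalling proteins and cholesterol. Caveolin-1 oligomers and the cavin coat shape the pit, EHD2 forms rings at its neck, and pacsins bend the membrane as it forms. Flotillins assemble separate cholesterol-rich patches that do not need caveolins. Caveolin-1 is abundant in mesenchymal, endothelial and fat cells and is also found in the basal cells of the mammary gland.

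Library totals ran from 17007268 to 21311831 counts, and mitochondrially encoded genes took 2.36% to 4.31% of them. Agps averaged 39.8 ± 5.87 CPM in treated knockout cells against 265 ± 0.98 CPM in treated parental cells, and 31.1 ± 2.52 CPM in untreated knockout cells against 343 ± 19.4 CPM in untreated parental cells (CPM, counts scaled to library size by TMM; SD, n = 2). The target was thus lower in all 4 knockout libraries and present in each. The labelled breast epithelial origin was checked against 6 epithelial markers: Epcam and Cldn7 had 0 counts in all 8 libraries, while the summed level of the list was 3098 to 3292 CPM in treated and 3136 to 3275 CPM in untreated knockout cells, and 2796 to 2955 CPM in treated and 4196 to 4590.4 CPM in untreated parental cells. Krt8 and Krt18, keratins of simple epithelia, made up most of that sum, and neither passed with TGF-β in knockout cells. Both fell with TGF-β in parental cells (log2 fold change -0.49, edgeR adjusted p = 0.00274, and -0.43, adjusted p = 0.00351). Without treatment both were lower in knockout than parental cells (-0.52, edgeR adjusted p = 0.00642, and -0.32, adjusted p = 0.0458). The junction genes fell with TGF-β in both lines. Cdh1, which encodes E-cadherin, averaged 52.3 CPM in treated against 302 CPM in untreated knockout cells (log2 fold change -2.53, edgeR adjusted p = 1.18e-08). In parental cells Cdh1 averaged 134 CPM with TGF-β against 642 CPM without (-2.26, adjusted p = 2.39e-08). Ocln, which encodes occludin, had -3.04 in knockout and -3.77 in parental cells. Between the lines the junction genes went opposite ways. Without treatment Cdh1 was lower in knockout than parental cells (log2 fold change -1.09, edgeR adjusted p = 5.92e-05). Ocln was higher there (0.76, adjusted p = 0.0031). Of the 4 epithelial markers tested, 3 were thus lower and 1 higher in untreated knockout cells. With TGF-β, 1 was lower, Cdh1, and 1 higher, Ocln. Mesenchymal markers, which TGF-β is known to raise in epithelial cells, summed to 10582 to 10637 CPM in treated knockout cells, against 1889 to 2004 CPM in untreated ones, and to 11380 to 11625 CPM in treated parental cells, against 1830 to 1918 CPM in untreated ones, with none of the 6 at 0 and all 6 higher past the threshold in both lines. Fat cell markers summed to 3.48 CPM or less in every library, with Plin1 at 0 throughout. Endothelial markers summed to 6.87 to 8.29 CPM in treated knockout cells and 77.0 to 77.1 CPM in treated parental cells, against 0.974 to 2.11 CPM in the untreated libraries of both lines, with Emcn and Cldn5 at 0 throughout. A single gene carried that sum in the treated cells, Cdh5, which encodes VE-cadherin, at 6.69 CPM in treated knockout and 75.6 CPM in treated parental cells, while Pecam1 and Vwf stayed under 1 CPM and did not pass with TGF-β. Immune markers summed to 6.41 to 11.9 CPM in the treated libraries, against 1.00 to 2.90 CPM in the untreated libraries, with Adgre1 and Cd3e at 0. Cd68, a lysosomal protein abundant in macrophages, carried that sum, at 10.8 CPM in treated against 2.33 CPM in untreated knockout cells and 6.69 CPM in treated against 1.47 CPM in untreated parental cells, and Ptprc averaged 0.149 CPM or less in every group. Striated muscle markers reached at most 2.72 CPM. The part of these lists in the results was not tested. In bulk RNA, fewer cells of a type and less RNA per cell cannot be told apart. Whether same-group libraries were grown separately is not stated, so a p-value here reflects library-to-library spread that may be technical.

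Cav2 and Cav1 lie side by side on mouse chromosome 6 (GRCm38), both on the plus strand. Cav2 (ENSMUSG00000000058) spans 17281185 to 17289115 and Cav1 (ENSMUSG00000007655) spans 17306335 to 17341452, so that 17.2 kb separate them with no other annotated gene between. Their upstream sequences are shown because these neighbours moved by unequal amounts with TGF-β. Those of Ehd2, with the largest rise, and of Cavin2, which differed between the lines, follow. RefSeq's promoter table for GRCm38.p6 held 8 of the 10 genes. The bases before the gene start that lie outside annotated exons are printed 5′ to 3′, and capitals mark matches to the motifs searched. The windows are chr6:17280935-17281184 (plus strand) for Cav2, chr6:17306085-17306334 (plus) for Cav1, chr7:15967568-15967785 (minus) for Ehd2 and chr1:51288876-51289125 (plus) for Cavin2.
Cav2: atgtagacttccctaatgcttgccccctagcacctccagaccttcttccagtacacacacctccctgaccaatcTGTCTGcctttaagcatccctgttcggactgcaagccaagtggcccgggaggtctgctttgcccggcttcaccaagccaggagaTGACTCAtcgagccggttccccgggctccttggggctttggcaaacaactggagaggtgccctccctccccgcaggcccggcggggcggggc
Cav1: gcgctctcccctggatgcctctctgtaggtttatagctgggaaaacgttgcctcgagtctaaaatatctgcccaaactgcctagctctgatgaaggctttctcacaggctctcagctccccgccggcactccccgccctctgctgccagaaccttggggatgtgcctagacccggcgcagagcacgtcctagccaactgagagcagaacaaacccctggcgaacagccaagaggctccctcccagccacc
Ehd2: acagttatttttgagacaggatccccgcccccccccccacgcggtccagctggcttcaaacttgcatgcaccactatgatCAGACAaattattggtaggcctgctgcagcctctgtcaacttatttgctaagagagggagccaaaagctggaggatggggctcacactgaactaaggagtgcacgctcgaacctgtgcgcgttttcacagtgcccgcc
Cavin2: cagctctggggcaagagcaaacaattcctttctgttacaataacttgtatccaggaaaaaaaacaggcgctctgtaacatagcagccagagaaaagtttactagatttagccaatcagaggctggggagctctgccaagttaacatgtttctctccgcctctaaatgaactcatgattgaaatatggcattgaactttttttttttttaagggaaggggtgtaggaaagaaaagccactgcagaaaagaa

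Both strands were searched for CACCTG, the E-box bound by ZEB and SNAI factors, for CATTCC, bound by TEAD factors, for CAGACA, bound by SMAD proteins, and for the AP-1 motif TGANTCA, and no matches overlapped. The Cav2 window held CAGACA on the minus strand, with its first base 176 bases before the gene start, and TGANTCA 92 bases before it. The Ehd2 window held CAGACA 170 bases before the start given in RefSeq's promoter table. That start lies inside annotated exon, so only 218 bases of the Ehd2 window are printed. None of the motifs occurred in the Cav1 and Cavin2 windows. Among 32851 windows of 250 bases before gene starts, 17.2% held CACCTG, 12.6% CATTCC, 17.1% CAGACA and 6.75% TGANTCA. GC content was 62.0% for Cav2, 59.6% for Cav1, 54.6% for Ehd2 and 40.4% for Cavin2. Pacsin2, which fell with TGF-β in both lines, also had a usable window, not shown, and it held none of these motifs. The windows shown were picked by the changes of their genes, and a link between motif and change was not tested.

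TGF-β moved the genes in both directions, and in the same direction in both lines for all 9 tested. The share of all tested genes with the same direction in both lines was not computed, so this agreement only describes the members. Cavin1, Ehd2 and Pacsin3 rose in each line, while Cav1, Cav2, Cavin2, Pacsin2, Flot1 and Flot2 fell (edgeR's quasi-likelihood test, Benjamini-Hochberg adjusted p under 0.05 over all genes tested). This made 9 of 9 past the threshold in each line, where 41.4% of all tested genes passed in knockout cells and 42.5% in parental cells. By direction, 20.9% of all tested genes were higher and 20.6% lower in treated than untreated knockout cells, and 21.3% higher and 21.2% lower in parental cells. The median log2 fold change of the 9 was -0.53 in knockout and -0.38 in parental cells, against a median of 0.00 and 0.01 over all genes. The median absolute change was 0.69 and 0.65, against 0.36 and 0.37 over all genes. Since the genes were chosen with earlier results of these data known, these counts and medians only describe them. Changes ran from 1.17-fold to 2.81-fold. The parental count was 5 without replicate 1 of the treated parental cells. Together the 10 genes took 0.148% and 0.155% of the counts of treated knockout cells, against 0.191% and 0.198% in untreated ones, and 0.147% and 0.152% in treated parental cells, against 0.199% and 0.200% in untreated ones.

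**Figure D1:**
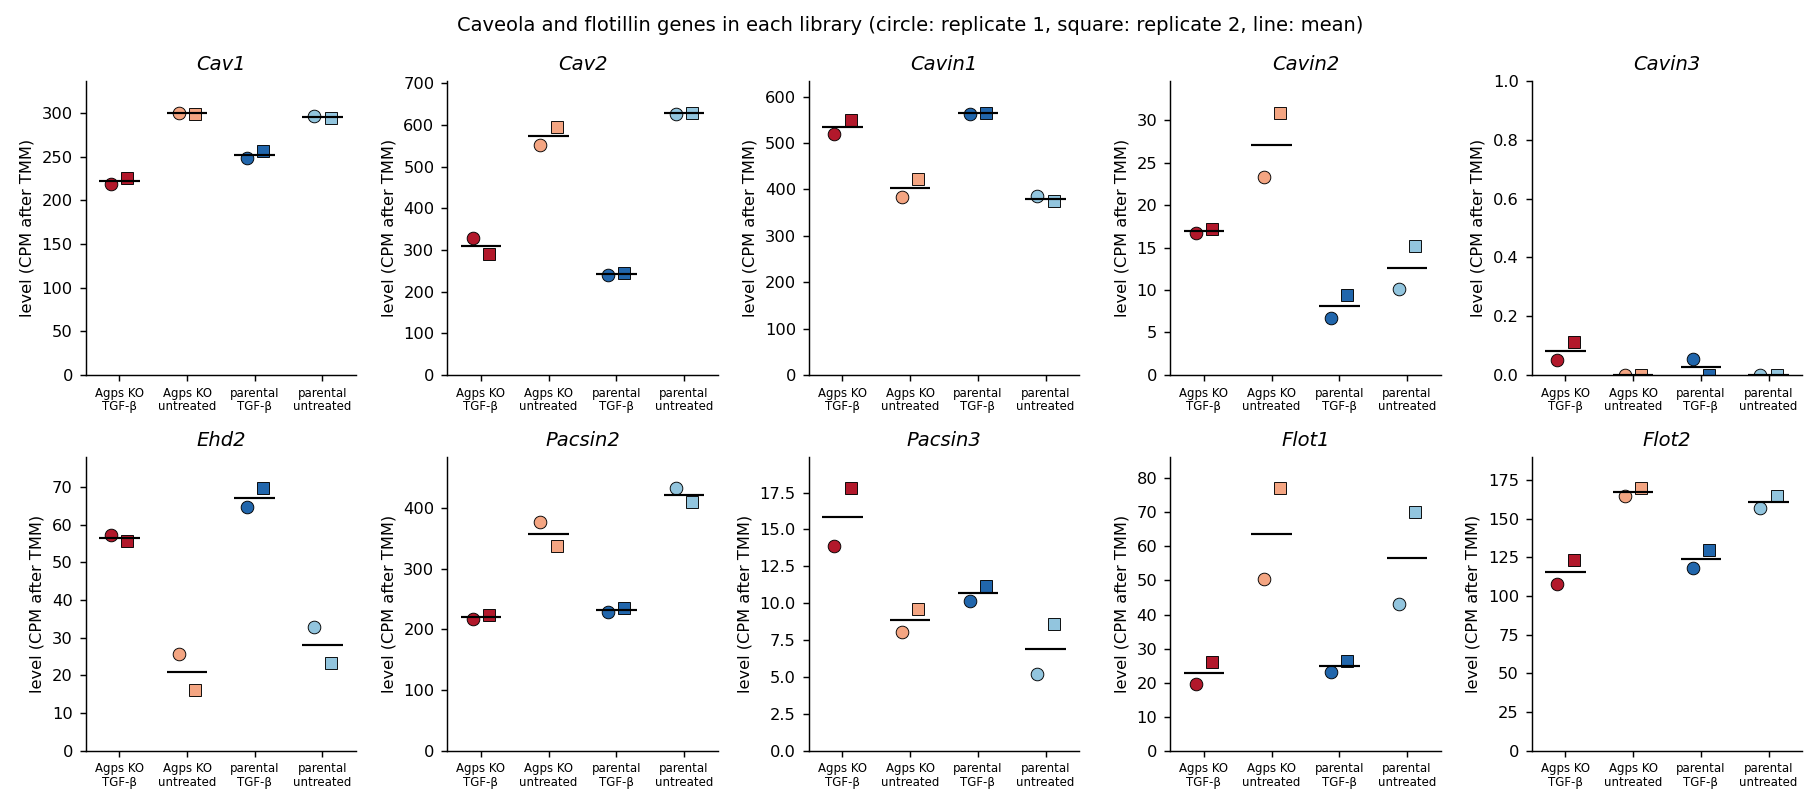
Level of each of the 10 genes in each library, in CPM (counts scaled to library size by TMM) on an axis from 0, with groups along the x axis, a circle for replicate 1, a square for replicate 2 and a line at the group mean. Cav2 stood at 240.2 to 328 CPM in the treated libraries, against 552 to 629.6 CPM in the untreated ones, and Cavin3 was at or near 0 in all.

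Caveolin-1 is the membrane-inserted protein without which caveolae of non-muscle cells do not form. Cav1 stood at 219 and 226 CPM in treated knockout cells, against 300.5 and 299 CPM in untreated ones, and at 248 and 256 CPM in treated parental cells, against 297 and 294 CPM in untreated ones. All 4 treated libraries lay below all 4 untreated ones. The log2 fold change was -0.43 (standard error 0.08, adjusted p = 7.78e-04) in knockout cells. In parental cells it was -0.23 (standard error 0.08, adjusted p = 0.031), a change smaller than that of 65.8% of all tested genes. That parental call did not hold without any single parental library (adjusted p = 0.0844 to 0.191), nor with upper quartile scaling (0.0759) or without the count filter (0.0532).

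Caveolin-2 forms hetero-oligomers with caveolin-1 and needs it to leave the Golgi. Cav2 stood at 328 and 289 CPM in treated knockout cells, against 552 and 596 CPM in untreated ones. In parental cells it stood at 240.2 and 243 CPM with TGF-β, against 627 and 629.6 CPM without. The groups lay far apart in both lines, with the treated parental libraries lowest. The fall was 1.86-fold in knockout cells (log2 fold change -0.90, standard error 0.09, adjusted p = 7.74e-06) and 2.60-fold in parental cells (log2 fold change -1.38, standard error 0.09, adjusted p = 2.72e-07).

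Measured per length, the balance of the caveolins changed. The ratio of Cav2 to Cav1 in CPM per kb of exon was 1.55 and 1.32 in treated knockout cells, against 1.90 and 2.06 in untreated ones. It was 0.999 and 0.981 in treated parental cells, against 2.18 and 2.21 in untreated ones. The treated and untreated libraries did not overlap in either line, and the treated parental libraries were lower than the treated knockout ones. With 2 libraries against 2, no exact permutation test of such a ratio can give a two-sided p under 0.333, so the ratios are given as values.

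Cavin-1 is the core protein of the caveolar coat and is needed for caveolae to form. Cavin1 stood at 520.2 and 549 CPM in treated knockout cells, against 383 and 422 CPM in untreated ones, and at 563 and 566 CPM in treated parental cells, against 386 and 375 CPM in untreated ones. Every treated library was above every untreated one. The log2 fold change was 0.41 (standard error 0.08, adjusted p = 0.00197) in knockout and 0.57 (standard error 0.08, adjusted p = 2.02e-04) in parental cells. Against Cav1, which fell, the ratio of Cavin1 to Cav1 per kb was 2.31 ± 0.0378 in treated knockout cells, against 1.29 ± 0.0941 in untreated ones, and 2.15 ± 0.0396 in treated parental cells, against 1.23 ± 0.0179 in untreated ones (SD, n = 2).

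**Figure D2:**
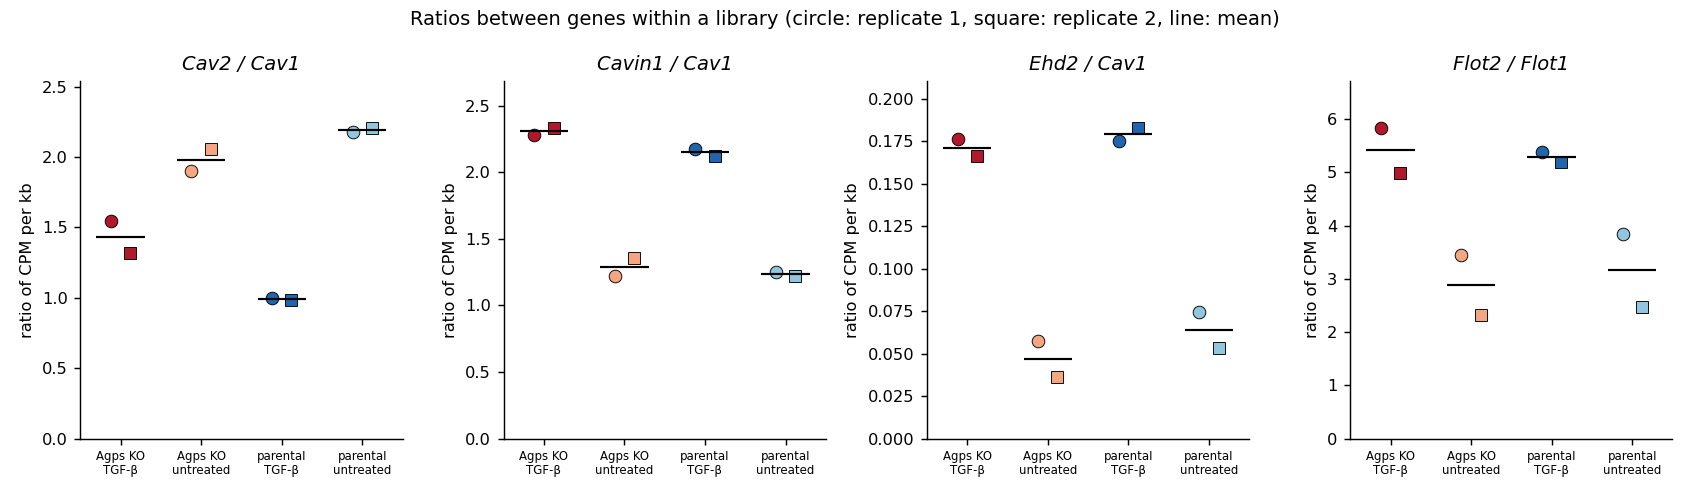
Ratios of CPM per kb of exon between pairs of the genes within each library, with groups along the x axis, axes from 0, a circle for replicate 1, a square for replicate 2 and a line at the mean. Cav2 to Cav1 was lower and Cavin1 to Cav1, Ehd2 to Cav1 and Flot2 to Flot1 were higher in the treated libraries of each line than in its untreated ones.

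Cavin-2, which helps curve the caveolar membrane, was scarce. Cavin2 stood at 16.7 and 17.2 CPM in treated knockout cells, against 23.3 and 30.9 CPM in untreated ones, and at 6.73 and 9.41 CPM in treated parental cells, against 10.1 and 15.2 CPM in untreated ones. The groups of each line did not overlap, although the closest parental libraries differed by less than the spread within the untreated group. The log2 fold change was -0.68 (standard error 0.20, adjusted p = 0.0195) in knockout and -0.65 (standard error 0.23, adjusted p = 0.0399) in parental cells. The knockout call was lost without replicate 2 of the untreated knockout cells (-0.46, adjusted p = 0.137) or without replicate 1 or 2 of the treated ones (0.113 and 0.0864). The parental call was lost without replicate 2 of the untreated parental cells (-0.33, adjusted p = 0.31), replicate 1 of the treated ones (-0.42, adjusted p = 0.275) or replicate 1 or 2 of the treated knockout cells (0.0665 and 0.0588), and with upper quartile scaling (0.0512).

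Cavin-3 links caveolae to protein kinase C delta signalling. Cavin3 had 1 and 2 counts in treated knockout cells and 0 in both untreated knockout libraries, and 1 and 0 counts in treated parental cells and 0 in both untreated parental libraries. It therefore had no test and no fold change, and a library with 0 counts is compatible with up to 3 counts, or at most 0.176 CPM in the untreated libraries. This floor covers counting error only. Of its exonic length, 22.5% lies under Gm45667, a gene on the opposite strand that had 0 counts in every library.

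Ehd2, whose product is an ATPase that holds caveolae at the cell surface, showed the largest rise. It stood at 57.3 and 55.8 CPM in treated knockout cells, against 25.6 and 16.0 CPM in untreated ones, and at 64.6 and 69.7 CPM in treated parental cells, against 32.9 and 23.4 CPM in untreated ones. The treated libraries were well above the untreated ones in each line, and the untreated libraries of a group differed more than the treated ones did. The change was 2.72-fold in knockout cells (log2 fold change 1.44, standard error 0.20, adjusted p = 1.15e-04) and 2.38-fold in parental cells (log2 fold change 1.25, standard error 0.20, adjusted p = 3.29e-04).

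The pacsins, F-BAR proteins that shape caveolae and other membrane carriers, moved in opposite directions. Pacsin2, the broadly expressed member, stood at 217 and 224 CPM in treated knockout cells, against 376 and 338 CPM in untreated ones. In parental cells it stood at 229 and 235 CPM with TGF-β, against 433 and 409.8 CPM without. All treated libraries were below all untreated ones, with log2 fold changes of -0.69 (standard error 0.09, adjusted p = 4.66e-05) in knockout and -0.86 (standard error 0.09, adjusted p = 8.75e-06) in parental cells.

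Pacsin3, a paralogue best known from muscle, stood at 13.9 and 17.8 CPM in treated knockout cells, against 8.06 and 9.60 CPM in untreated ones, and at 10.2 and 11.1 CPM in treated parental cells, against 5.22 and 8.55 CPM in untreated ones. The treated libraries were higher in each line, without overlap. The log2 fold change was 0.84 (standard error 0.21, adjusted p = 0.00767) in knockout and 0.64 (standard error 0.23, adjusted p = 0.0406) in parental cells. The parental value was 0.31 (adjusted p = 0.295) without replicate 1 and 1.02 (adjusted p = 0.00373) without replicate 2 of the untreated parental cells. The parental call was also lost without replicate 1 or 2 of the treated parental cells (0.0881 and 0.169) or of the treated knockout cells (0.0507 and 0.0508). The knockout call was lost without replicate 2 of the treated knockout cells (0.0801). Pacsin3 shares 0.971% of its exonic length with Gm17281 on the opposite strand, which had 0 counts.

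Flotillin-1 and flotillin-2 hold each other in hetero-oligomers at the membrane. Flot1 stood at 19.5 and 26.0 CPM in treated knockout cells, against 50.4 and 77.1 CPM in untreated ones, and at 23.1 and 26.4 CPM in treated parental cells, against 43.2 and 70.1 CPM in untreated ones. The treated libraries were all below the untreated ones, and replicate 2 was the higher in each untreated group. The fall was 2.81-fold in knockout cells (log2 fold change -1.49, standard error 0.24, adjusted p = 4.45e-04) and 2.29-fold in parental cells (log2 fold change -1.19, standard error 0.24, adjusted p = 0.00213).

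Flot2 changed less. It stood at 108 and 123 CPM in treated knockout cells, against 164 and 169.6 CPM in untreated ones, and at 118 and 129.7 CPM in treated parental cells, against 157 and 165 CPM in untreated ones. No treated library reached an untreated one. The log2 fold change was -0.53 (standard error 0.09, adjusted p = 6.93e-04) in knockout and -0.38 (standard error 0.09, adjusted p = 0.00664) in parental cells, and the parental call was lost without replicate 1 of the treated parental cells (adjusted p = 0.0892). Per kb, Flot2 exceeded Flot1 5.84-fold and 4.99-fold in treated knockout libraries, against 3.44-fold and 2.32-fold in untreated ones, and 5.39-fold and 5.19-fold in treated parental libraries, against 3.84-fold and 2.48-fold in untreated ones.

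**Figure D3:**
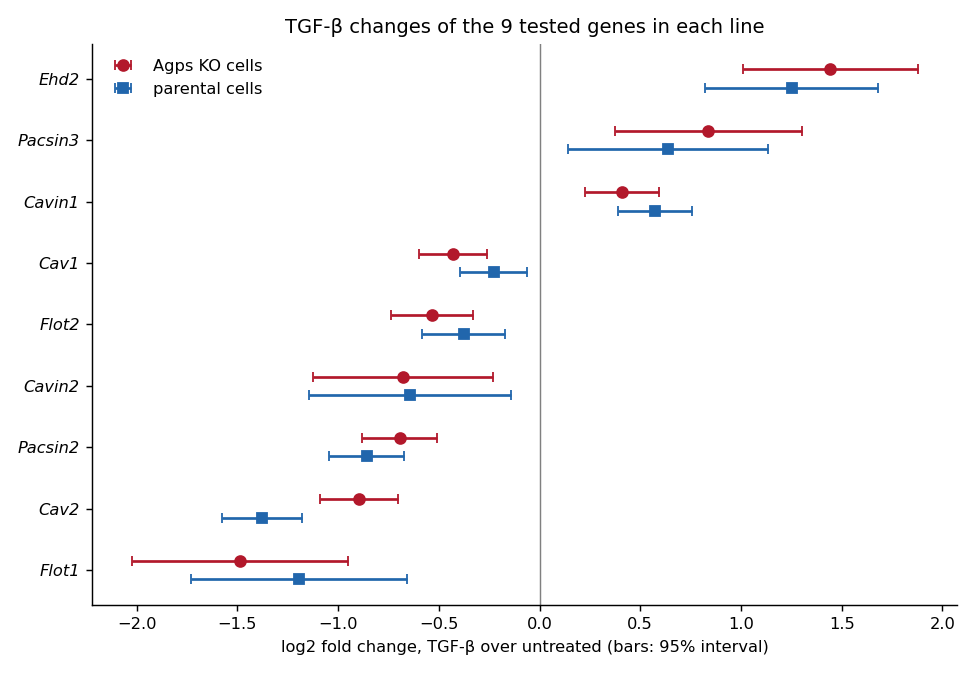
Log2 fold change of TGF-β over untreated cells for the 9 tested genes, one gene a row, with a circle for knockout cells above a square for parental cells and bars for the 95% interval of the fit. Ehd2, Pacsin3 and Cavin1 lie right of 0 and the other 6 genes left of it in both lines.

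Ranked by level per kb, the order of the genes also changed. In treated knockout cells it ran Cavin1 (149 CPM per kb), Cav2 (92.4), Cav1 (64.6), Pacsin2 (45.0), Flot2 (42.1), Ehd2, Flot1 (7.87), Cavin2 (5.55) and Pacsin3 (3.66), and only the ranges of Pacsin2 and Flot2 overlapped. In untreated knockout cells Cav2 led (172 CPM per kb), followed by Cavin1 (112), Cav1 (87.0), Pacsin2 (72.8), Flot2 (60.9), Flot1 (22.0), Cavin2 (8.88), Ehd2 (4.06) and Pacsin3 (2.04), and no neighbours in that order overlapped. In treated parental cells Cavin1 led at 157 CPM per kb, and Cav1 and Cav2 could not be told apart at 73.2 ± 1.58 and 72.5 ± 0.658 CPM per kb (SD, n = 2). Pacsin2 and Flot2 overlapped there as well, as did Cavin2 and Pacsin3. In untreated parental cells Cav2 led at 188 CPM per kb, Pacsin2 and Cav1 overlapped at 85.9 and 85.8 CPM per kb, and so did Ehd2 and Cavin2 at 5.50 and 4.13 CPM per kb. Cav1 was above 95.9% of all tested genes per kb in treated knockout cells, against 97.4% in untreated ones, and above 96.8% in treated parental cells, against 97.2% in untreated ones.

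The knockout was set against the parental line within each treatment, and these comparisons share libraries with those above. With TGF-β, 2 of the 9 genes passed, Cavin2 and Cav2, both higher in knockout cells, where 17.9% of all tested genes passed, 6.82% being higher and 11.1% lower. Without treatment 1 of the 9 passed, Cavin2, where 13.7% of all tested genes passed, 4.72% being higher and 8.94% lower. Counted in either direction, the calls among the 9 are near those shares over all genes. Each call was in the higher direction, which had the smaller share over all genes in both treatments. These counts only describe the members. Median log2 fold changes of the 9 were -0.08 with TGF-β and 0.05 without, against 0.01 and 0.00 over all genes.

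Cavin2 was higher in knockout cells with TGF-β (16.7 and 17.2 CPM, against 6.73 and 9.41 CPM in parental cells) and without it (23.3 and 30.9 CPM, against 10.1 and 15.2 CPM in parental cells). Every knockout library was above every parental library. The log2 fold change was 1.08 (standard error 0.22, adjusted p = 0.00649) with TGF-β and 1.11 (standard error 0.21, adjusted p = 0.00452) without. The treated call was lost without replicate 1 of the treated parental cells (log2 fold change 0.84, adjusted p = 0.0826), and the untreated call held under every alternative run (adjusted p at most 0.0362). The median of 38 tested genes within 5 Mb of Cavin2 on chromosome 1 was 0.13 with TGF-β and 0.14 without.

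Cav2 stood at 328 and 289 CPM in treated knockout cells, against 240.2 and 243 CPM in treated parental cells, with a log2 change of 0.35 (standard error 0.09, adjusted p = 0.0181). The call was lost without replicate 1 or 2 of the treated parental cells (0.137 and 0.109) or replicate 1 of the treated knockout cells (0.122). Without treatment Cav2 was 574 ± 30.9 CPM in knockout cells and 628 ± 1.71 CPM in parental cells (SD, n = 2), and the log2 difference of -0.13 (95% interval -0.32 to 0.06) did not pass. The neighbour Cav1 differed by -0.18 with TGF-β (95% interval -0.35 to -0.01, adjusted p = 0.132) and by 0.02 without (95% interval -0.15 to 0.19, adjusted p = 0.915).

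For the other 6 tested genes no difference between the lines passed. Pacsin3 had a log2 difference of 0.57 with TGF-β (95% interval 0.10 to 1.03, adjusted p = 0.0899). It passed without the count filter (0.0134), with only the groups compared (0.0152), with the replicate block (0.0167) and when either untreated parental library was left out (0.0276 and 0.0287), and its adjusted p reached 0.405 without replicate 2 of the treated knockout cells. Ehd2 had one of -0.44 without TGF-β (95% interval -0.88 to 0.00, adjusted p = 0.195), which ran from -0.82 (adjusted p = 0.0125) without replicate 1 to -0.14 (adjusted p = 0.705) without replicate 2 of the untreated knockout cells. Without the count filter Ehd2 passed (0.0114). Pacsin2 was 357 ± 27.3 CPM in untreated knockout cells and 421 ± 16.4 CPM in untreated parental cells (SD, n = 2), a log2 difference of -0.24 (95% interval -0.42 to -0.05, adjusted p = 0.0904). Beside it, the 129 tested genes within 5 Mb on chromosome 15 had a median of -0.27 and all 573 tested genes of that chromosome one of -0.17 in that comparison, and their part in the result was not tested. The 95% intervals of Flot1 ran from -0.67 to 0.43 with TGF-β and from -0.34 to 0.68 without, so differences within those ranges were not excluded.

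**Figure D4:**
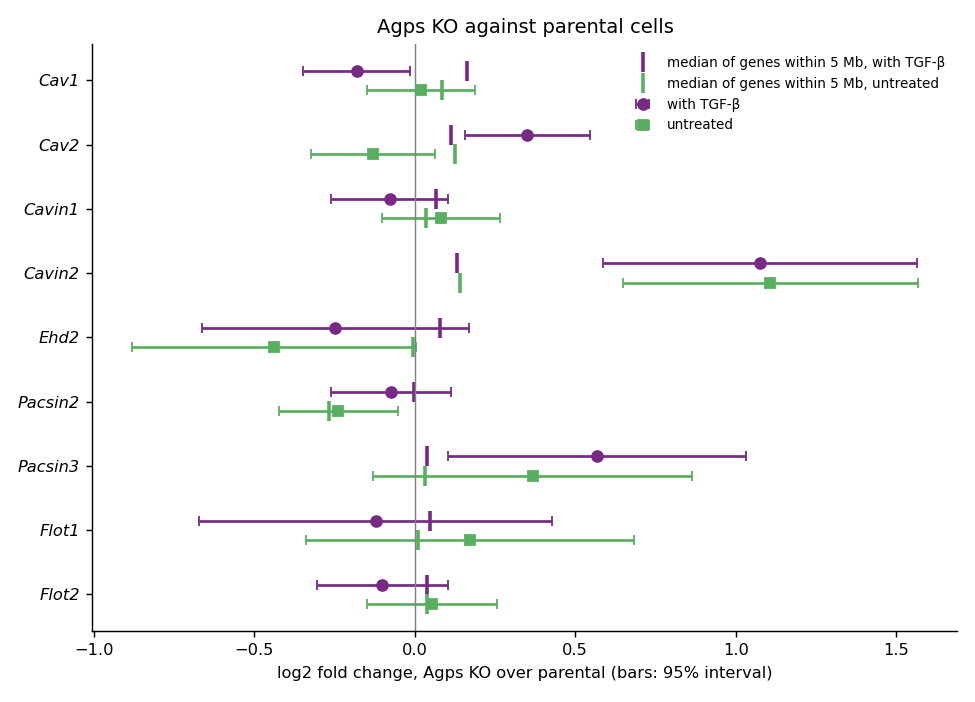
Log2 fold change of knockout over parental cells for the 9 tested genes, one gene a row, with a circle for cells with TGF-β above a square for untreated cells, bars for the 95% interval of the fit and vertical ticks for the median of the tested genes within 5 Mb. Cavin2 lies near 1.1 in both treatments, apart from its neighbours' medians of 0.13 and 0.14.

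Whether TGF-β acted unequally in the lines was tested as the difference of its changes, knockout minus parental. Of the 9 genes 0 passed, where 2.4% of all tested genes passed, and 1 had an unadjusted p under 0.05, as did 13.9% of all tested genes. That gene was Cav2, which fell less in knockout cells, with a difference of 0.48 (standard error 0.12, 95% interval 0.21 to 0.75, unadjusted p = 0.00256, adjusted p = 0.0767 in edgeR). It passed with DESeq2 (0.49, adjusted p = 0.0279), and its adjusted p ranged from 0.00766 to 0.282 over the alternatives run. The differences of the other 8 ran from -0.30 for Flot1 to 0.20 for Pacsin3, with adjusted p of 0.455 or more.

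Other genes of these membrane systems were read from 4 lists. Of 10 tested caveola relatives and accessory genes, 4 were higher and 2 lower in treated than untreated knockout cells, and 4 higher and 1 lower in parental cells, with medians of 0.07 in both. For these lists too, the shares over all tested genes were 20.9% higher and 20.6% lower in knockout cells and 21.3% higher and 21.2% lower in parental cells. Ror1, a receptor-like protein known in human cells to hold caveolin-1 and cavin-1 together, rose by 1.88 in knockout and 0.99 in parental cells (log2 fold change), and Flna, an actin cross-linker that binds caveolin-1, rose by 1.22 and 1.25. Cd36, a fatty acid transporter found in caveolae among other places, fell to 0.134 CPM in treated knockout cells, against 17.0 CPM in untreated ones, and to 0.136 CPM in treated parental cells, against 3.96 CPM in untreated ones. Without treatment Cd36 was higher in knockout than parental cells by 2.10 on the log2 scale (adjusted p = 4.92e-05). Ehd4, a relative of Ehd2, was lower in knockout than parental cells by 0.49 on the log2 scale with TGF-β (log2 fold change -0.49) and by 0.29 without (log2 fold change -0.29).

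Among 10 tested genes of the stomatin family and flotillin partners, 2 were higher and 2 lower with TGF-β in knockout cells (median 0.09), and 2 higher and 4 lower in parental cells (median -0.06), where 41.4% of all tested genes passed in knockout and 42.5% in parental cells. Erlin2, of endoplasmic reticulum rafts, fell with log2 fold changes of -0.55 in knockout and -0.50 in parental cells, while its partner Erlin1 rose by 0.35 and 0.22. Stom, which encodes stomatin, fell in parental cells (log2 fold change -1.30, adjusted p = 4.77e-05) and stood at -0.39 in knockout cells (adjusted p = 0.0659).

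Clathrin-coated pits are the main other route of uptake. Of 18 tested genes of these pits, 4 were higher and 3 lower with TGF-β in knockout cells (median -0.08), and 5 higher and 5 lower in parental cells (median -0.10), against 41.4% and 42.5% of all tested genes passing in knockout and parental cells. The clathrin adaptor Hip1 rose by 1.08 and 0.96 and the membrane-curving Bin1 by 1.24 and 0.93 on the log2 scale in knockout and parental cells. Ap2m1, the cargo-binding subunit of the AP-2 adaptor, fell in both (log2 fold change -0.62 and -0.30), and Cltb, a clathrin light chain, fell in knockout cells (-0.92, adjusted p = 2.53e-04) and had -0.33 in parental cells (adjusted p = 0.0723).

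YAP and TEAD targets, a group to which Cav1 has been linked, rose in 4 and fell in 2 of 8 cases with TGF-β in knockout cells (median 0.12), and rose in 5 and fell in 2 in parental cells (median 0.33), beside the 41.4% and 42.5% of all tested genes that passed. Ccn2 rose by 1.70 in knockout and 1.35 in parental cells, and Axl by 1.82 and 1.29, whereas Ccn1 fell (log2 fold change -0.75 and -0.56). Ankrd1 rose by 0.28 and 0.37. Between the lines, 1 of the 8 was higher and 4 lower in knockout cells with TGF-β, and 1 was higher and 3 lower without, where 17.9% and 13.7% of all tested genes passed. Axl was the higher one with TGF-β (log2 fold change 0.82, adjusted p = 0.0189), and Amotl2, a regulator of YAP named here after its values were seen, the higher one without (0.38, adjusted p = 0.0283). Amotl2 was also the other gene of the list that fell with TGF-β, with log2 fold changes of -1.30 in knockout and -0.94 in parental cells. Ccn1 was lower in knockout than parental cells under both treatments (log2 fold change -1.14 with TGF-β and -0.94 without), as were Ccn2 (-0.53 and -0.88) and Ankrd1.

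**Figure D5:**
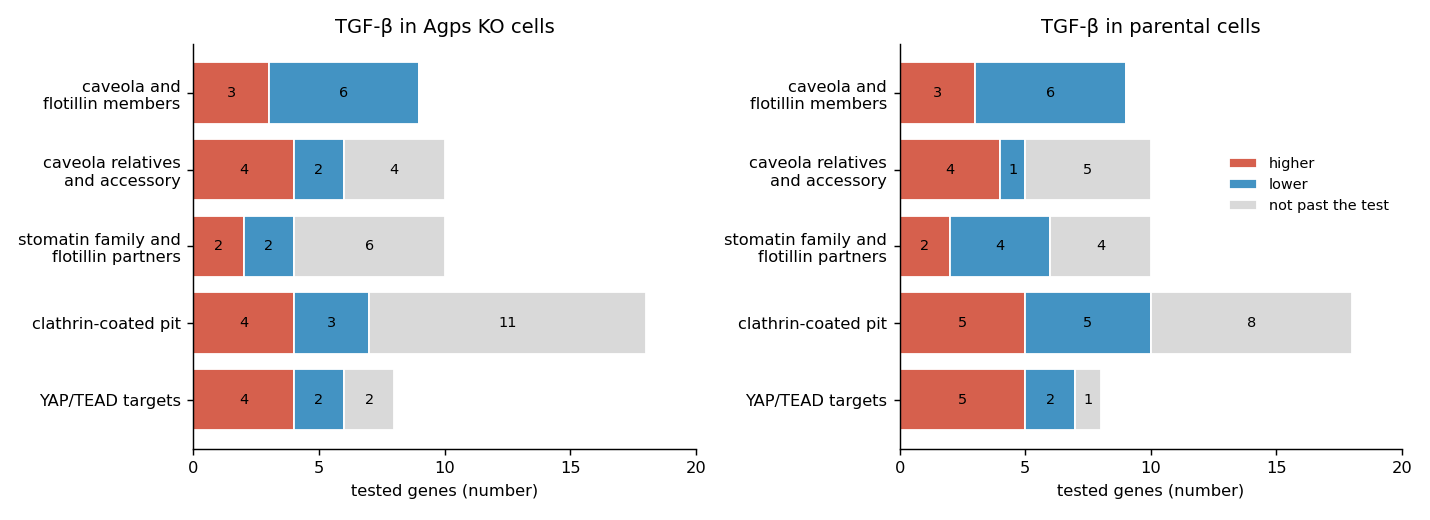
Number of tested genes higher, lower or not past the test with TGF-β in each list, for knockout cells on the left and parental cells on the right. The 9 caveola and flotillin genes show 3 higher and 6 lower in each line.

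Likeness to Cav1 was measured as the root mean square distance of centred log2 CPM over the 8 libraries, in a pool of 9325 genes whose log2 CPM averaged 3 or more. The nearest genes were Ptprf (0.0423), Osbp (0.0467) and Stim1 (0.0490). The distance grows with unequal size of change as well as with opposite direction, so a gene that moves opposite to Cav1 can stand nearer than one that falls further: Cavin1, which rose with TGF-β, ranked ahead of Cav2 and Flot1, which fell. Of the other members, Flot2 stood at rank 76 (distance 0.0861), Pacsin2 at rank 3877 and Cav2 at rank 7377, and Cavin1, Flot1, Pacsin3, Cavin2 and Ehd2 at ranks 7015, 7992, 8306, 8312 and 8757. All libraries of a group share a treatment and line, so this describes the order of 4 group levels more than 8 independent points.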

How the data were processed

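RNA was measured in 8 libraries of 4 groups. Per the submitters' processing notes, the authors aligned reads with STAR 2.7.1a to GRCm38 (mm10) and counted them per gene with featureCounts 1.6.2. The deposited files hold whole raw counts for 55450 identifiers, all found in the GENCODE M21 annotation, and each symbol was taken from the gene name table. Annotation release and strandedness were not given in the sources used here. A normalized table deposited for the same libraries was not used. Genes were kept with filterByExpr (minimum count 10), scaled by TMM and tested across all libraries together by quasi-likelihood in edgeR 4.0.16 under R 4.3.3, with a mean per group and 4 residual degrees of freedom, adjusted by Benjamini-Hochberg within each of 5 contrasts. The procedure was tested on simulated data. Standard errors and 95% intervals derive from the F statistic. CPM per kb uses the union of GENCODE M21 exons. Alternatives were DESeq2 1.42.0, RLE and upper quartile scaling, no filter, only the groups compared, a replicate block and leaving out each library. The members and lists were chosen with earlier results of these data known. The text accounts for all 10 members, names Agps as the target check, up to 4 genes of each related list (those called in most contrasts, then by size), and the 3 genes nearest to Cav1. A gene that this rule names is not reported here. Likeness used log2 CPM with a prior count of 2.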

Additional observations from a re-analysis of the deposited data

Results flagged for a closer look

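The TGF-β changes of the lines differed past the threshold for Agps and Ror1, for the epithelial marker Krt8 and for the mesenchymal marker Cdh2. For Krt8 the difference was 0.65 (log2 fold change 0.16 in knockout and -0.49 in parental cells, adjusted p = 0.0464 in edgeR). Cdh2, which encodes N-cadherin, rose less in knockout cells. Its difference was -0.72 (log2 fold change 1.02 in knockout and 1.74 in parental cells, adjusted p = 0.0156 in edgeR). The values of Krt8 and Cdh2 under the alternatives were not extracted. For Agps the difference was 0.73 (log2 fold change 0.36 in knockout and -0.37 in parental cells, adjusted p = 0.0332 in edgeR). The knockout change of Agps was 0.20 (adjusted p = 0.236) without replicate 1 of the treated and 0.27 (0.151) without replicate 2 of the untreated knockout cells. With only the groups compared it had an adjusted p of 0.0573. Its parental change did not pass without replicate 1 of the untreated (0.0603) or replicate 1 or 2 of the treated parental cells (0.0798 and 0.0706). The difference had an adjusted p above 0.05 without replicate 1 of the untreated parental cells (0.0617), replicate 1 or 2 of the treated parental cells (0.145 and 0.133), replicate 2 of the untreated knockout cells (0.067) or replicate 1 of the treated knockout cells (0.113). For Ror1, the receptor-like gene tied to caveolae, the difference was 0.89 (log2 fold change 1.88 in knockout and 0.99 in parental cells, adjusted p = 0.0146). It stood at 45.1 CPM in treated and 12.2 CPM in untreated knockout cells, and at 47.4 CPM in treated and 23.9 CPM in untreated parental cells. Its adjusted p was 0.09 and 0.0705 without replicate 1 or 2 of the treated parental cells and 0.0746 without replicate 2 of the treated knockout cells.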

How the results depend on the processing

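Of the 10 genes, the TGF-β falls of Cav2, Pacsin2 and Flot1 and the rises of Cavin1 and Ehd2 kept their direction and passed in both lines under every alternative run. The number of members called with TGF-β was 7 to 9 in knockout and 5 to 9 in parental cells when a library was left out. Between the lines it was 0 to 3 with TGF-β and 1 to 2 without, and for the difference of changes 0 in each case. With TGF-β, 4 members passed between the lines when only the groups compared were fitted, Pacsin3 and Ehd2 being added. Without treatment, 2 passed without the count filter. For the difference of changes, 1 passed with DESeq2, without the filter and with the replicate block, in each case Cav2.

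Over all genes, the difference of changes had 352 calls, or 855 without the filter, 679 with the replicate block and 120 to 421 with a library left out. Knockout against parental cells without TGF-β had 2000 calls, or 1111 with only those groups. With TGF-β it had 2618, or 1188 to 2922 with a library left out. The causes were not tested. The replicate numbers are not stated to mark shared cultures, and the deviations of same-numbered libraries correlated at 0.0218 to 0.308 between groups. With the replicate block 43 of 45 member results stayed on the same side of the threshold, Cav2 passing in the difference of changes (adjusted p = 0.0394) and Pacsin3 between the treated lines (0.0167). With 2 libraries a group, the SE of the scarcer Cavin2 and Pacsin3 stayed at 0.20 or more. In the pairwise contrasts the more abundant Flot1 had an SE of 0.23 to 0.25 and Ehd2 one of 0.19 to 0.20.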

Other observations

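Flot1, Cavin2, Pacsin3 and Ehd2 differed between the replicates of both untreated groups by more than the median gap over all tested genes. Cav1, Cav2, Cavin1, Pacsin2 and Flot2 differed by less than that median. As many genes lie above a median as below it, so this only describes the members. In untreated knockout and untreated parental cells, replicate 2 was above replicate 1 for Flot1 by 0.61 and 0.70, for Cavin2 by 0.41 and 0.59 and for Pacsin3 by 0.25 and 0.71 on the log2 scale. Ehd2 went the other way, with -0.68 and -0.49. The median absolute gap over all tested genes was 0.17 in untreated knockout and 0.18 in untreated parental cells. Over all tested genes the replicate gaps of these groups correlated at 0.308 across genes, though genes are no independent replicates. The share of counts from mitochondrially encoded genes was 3.46% in replicate 1 and 2.80% in replicate 2 of the untreated knockout cells, and 3.37% and 2.37% in those of the untreated parental cells, and their part in these gaps was not tested.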
